A study of Mus musculus with 6 samples.

Results

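The comparison set mouse retinas from before birth against mouse retinas from after birth. Retinas of C57BL/6J mice had been collected at 3 embryonic ages (E13.5, E15.5 and E18.5, in days after conception) and at 3 ages after birth (P0, P6 and P21, in days), with 1 sample per stage. The members were all 6 of the 6 samples in the series: the 3 embryonic libraries formed one group and the 3 postnatal libraries the other. No genotype, drug or other treatment was labelled in either group, and the number of animals behind a sample was not given in the sources used here. With 1 library per stage, differences between the stages of a group count as spread, and p-values measure a group difference against that spread. Birth, age and anything else that differed between early and late collections cannot be told apart.

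The assay was PA-seq, in which cDNA is primed from the poly(A) tail, so that each sequenced tag reports the 3′ end of one RNA fragment. Nearly every messenger RNA ends where cleavage factors cut the transcript and a tail is added, usually a short way after the poly(A) signal AAUAAA or a close variant. Many genes carry more than 1 such site. A gene then makes a shorter RNA from the proximal site or a longer one from the distal site, and the longer 3′ untranslated region can hold more binding sites for microRNAs and RNA-binding proteins. Neurons are known for long 3′ untranslated regions, and dividing cells for short ones. In the mouse retina, ganglion, cone, horizontal and many amacrine cells are born mainly before birth, whereas most rods, bipolar cells and Müller glia are born around and after it, and synapses and outer segments form postnatally.

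The libraries held 3286158 (P0) to 4656153 (E18.5) tags, of which 95.5% to 97.5% lay on a gene. Tags were placed on 14472 genes, and 6070 genes had a pair of main sites deep enough for a test of site choice. Levels are given as CPM, the tags of a gene relative to all tags on genes with scaling between libraries, and 3 tags corresponded to 0.655 to 0.944 CPM. Intervals and this floor cover counting error only, since PCR copies are not independent molecules. Defining retinal genes were measured, among them the photoreceptor factor Crx (143 to 828 CPM). Lens genes, which mark another tissue of the eye, summed to 3946 CPM at E15.5 and 5568 CPM at P0 against 308 to 1339 CPM in the other 4 libraries, so 1 library of each group stood apart; none of the 21 lens genes measured separated the groups.

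The 2 deposited columns of a stage, which were summed here, did not always hold the same levels. They differed at least 2-fold in 0.869% (P6) to 3.52% (E15.5) of the 9782 genes with a mean of at least 20 CPM. Of the 1595 such genes in which every postnatal library lay above, the fitted difference was larger in the second columns than in the first in 90.6% (medians of 0.79 and 0.62 in log2), and of the 1784 genes below it was larger in 73.8% (medians of -0.61 and -0.54). In some late genes named below the first columns of early stages held most of the tags, and in some early genes the first columns of late stages did. What the columns stand for is not given in the sources used here, and the source of this difference was not tested. Values below are of the sum, and the columns are given where they are far apart.

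The libraries lay along age rather than in 2 compact groups. Over 9782 genes with a mean of at least 20 CPM, the median absolute log2 difference between libraries was 0.17 to 0.26 within the embryonic group. Within the postnatal group it was 0.26 (P6 and P21), 0.31 (P0 and P6) and 0.48 (P0 and P21). P0 differed from E18.5 by a median of 0.23 and from E15.5 by 0.23, which was less than its difference from either other postnatal library. For site choice P0 was nearest to P6. In the 5469 genes whose pair held 20 tags or more in each library, the median absolute difference in the share of tags at the distal site was 5.0 percentage points between P0 and E18.5, 4.0 between P0 and P6 and 5.5 between P0 and P21. P0 was the shallowest library, and the part of sampling noise in these differences was not tested.

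**Figure D1:**
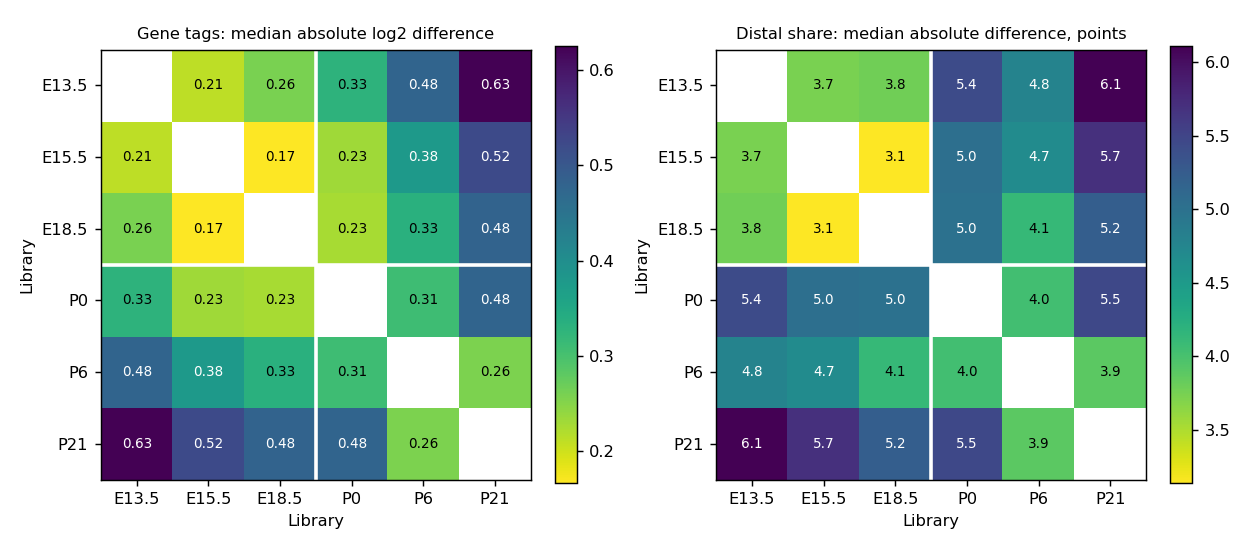
Differences between each 2 libraries, for gene levels on the left (median absolute log2 difference in CPM over 9782 genes, offset of 1 CPM) and for distal shares on the right (median absolute difference in percentage points over 5469 pairs). White lines part the embryonic from the postnatal libraries; P0 was nearer to E18.5 in gene levels (0.23 against 0.31 to P6) and nearer to P6 in distal share (4.0 points against 5.0 to E18.5).

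The first question was which genes differ in level between the groups. No gene passed: in edgeR's quasi-likelihood test of 14467 genes, 0 were higher and 0 were lower after birth (0% called in either direction), and the lowest Benjamini-Hochberg adjusted p was 0.151. At an unadjusted p under 0.05 there were 2069 genes (14.3%) with higher and 1632 (11.3%) with lower postnatal levels. DESeq2 on the same tags called 1068 higher (7.38%) and 532 lower (3.68%). The library from P0 decided the count, since without it edgeR called 1640 genes higher (11.3%) and 1698 lower (11.7%), whereas leaving out any other single library gave 0 and 0. Adding the order of the stages within each group to the model gave 1001 higher (6.92%) and 754 lower (5.21%). Without P0 and E18.5, its neighbour across birth, there were 1421 (9.83%) and 1184 (8.19%), and without P0 and E15.5 there were 245 (1.7%) and 307 (2.12%). All single-gene differences below are therefore descriptions that did not pass the planned test. For the genes named below as lying apart between the groups, the edgeR adjusted p was 0.151 to 0.246, and under the alternatives it reached 0.403 for the genes with the widest gaps.

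What the data do allow is a count of genes whose groups did not overlap at all. In 2248 genes (15.5% of those tested) every postnatal library lay above every embryonic one, and in 2433 genes (16.8%) every postnatal library lay below. The largest single step between neighbouring stages fell between E18.5 and P0 in 25.9% of the first set and 36.3% of the second. Choosing genes that part across birth favours this step, and its share over all genes was not computed. In the first set the step from P6 to P21 was the largest about as often (26.6%). Without P0 the counts were 4170 and 4446. Fewer cells of a type and less RNA per cell cannot be told apart in these bulk samples.

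The genes that follow were picked for a wide gap between the groups. Mt2, a metallothionein, which binds zinc and copper and answers to glucocorticoids and metals, was measured at 6.0, 14 and 3.5 CPM before birth and at 49.1, 64.3 and 126 CPM after. All postnatal values lay above the highest embryonic one, a fitted log2 difference of 3.35 ± 0.60 (SE; edgeR adjusted p = 0.151). Its neighbour and paralog Mt1 was measured at 15.3, 28.5 and 22.3 CPM before birth and 61.1, 81.1 and 152 CPM after (log2 difference 2.15 ± 0.40). In the second columns alone the log2 differences were larger, at 4.91 for Mt2 and 2.98 for Mt1. Samd11, a photoreceptor-enriched gene with a SAM domain, was measured at 49.3, 61.0 and 67.0 CPM and then at 153, 465 and 386 CPM, and the related Samd7 at 7.4, 13.7 and 20.5 and then 40.3, 159 and 109 CPM. Cbx7, a chromatin reader of Polycomb complexes, stood at 7.1, 14.3 and 14.6 CPM in the embryonic libraries and at 34.3, 47.1 and 55.4 CPM in the postnatal ones. These 5 genes kept apart in the first and in the second deposited column of each stage as well, which are parts of the same sum. Wide gaps at low levels were found in the keratin gene Krt24, at 0.55 to 1.1 CPM before birth and 5.7 to 28.8 CPM after, and in Fosb, an immediate early gene, at 0.55 to 0.87 CPM and then 3.5 to 14.8 CPM. Gm16075 (1.1 to 3.1 and then 10.7 to 21.9 CPM), Gm10685 (0.26 to 0.65 and then 3.1 to 7.9 CPM) and the sodium channel gene Scn4a (0 to 0.26 and then 1.9 to 14.3 CPM) had similar gaps.

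In some genes picked for a large fitted fold P0 lay near the embryonic libraries, and the distance came from P6 and P21. Grm6, a metabotropic glutamate receptor that ON bipolar cells use, was measured at 6.3, 17.7 and 4.8 CPM before birth and at 18.6, 232 and 270 CPM after. The values up to P0 came almost wholly from the first columns: these held 10.6, 35.2, 8.9 and 37.2 CPM from E13.5 to P0, and the second columns 1.1, 0, 0 and 0 CPM. In the second columns the groups therefore overlapped, with 257 and 292 CPM at P6 and P21. Nxnl1, which encodes the rod-derived cone viability factor, was at 10.1, 28.2 and 18.1 CPM and then 37.8, 189 and 485 CPM; its second columns held 0, 0.54, 8.9 and 5.2 CPM up to P0 and overlapped too. The processed pseudogene Tpt1-ps3 had the largest fitted fold of all, at 0.27, 0.26, 0.22 and 0.63 CPM up to P0 and 181 and 135 CPM at P6 and P21. Its tags may include those of its parent gene Tpt1 or of other copies, so its level is uncertain.

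Genes picked for a wide gap in the other direction had P0 with P6 and P21, as that choice favours. Mmp14, a membrane-bound matrix metalloproteinase, was measured at 47.1, 53.3 and 58.0 CPM before birth and at 11.0, 11.6 and 5.5 CPM after, a log2 difference of -2.49 ± 0.33 (edgeR adjusted p = 0.151). All of its tags came from 1 site inside an intron, so they report that site and not the usual end of the gene. Dnajc2, a ribosome-associated chaperone, stood at 65.5, 78.1 and 80.7 CPM and then at 20.1, 17.5 and 19.2 CPM (log2 difference -1.98 ± 0.19). Eif3d, a subunit of the translation initiation factor eIF3, was measured at 77.8, 98.7 and 106 CPM and then at 25.2, 24.6 and 31.2 CPM. Chtf8, which helps load the DNA replication clamp, stood at 86.6, 111 and 115 CPM and then at 34, 23.9 and 32.3 CPM. In these genes the groups were apart in either column alone, though the columns are parts of the same sum. Baz1a, a subunit of a nucleosome-remodelling complex, was measured at 23.3, 14 and 31.9 CPM and then at 2.8, 2.7 and 2.2 CPM. Rmi2, a partner of the Bloom syndrome helicase, stood at 16.6 to 23.8 CPM and then at 0.55 to 3.5 CPM. At lower levels, Myl7, a myosin light chain of the heart atrium, was at 3.7 to 6.8 CPM before birth and at most at 0.31 CPM after, under the floor. The histone gene Hist1h1a (3.5 to 5.2 and then 0 to 0.63 CPM) and Gm22711 (4.6 to 11.5 and then 0 to 0.31 CPM) were likewise under the floor after birth.

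**Figure D2:**
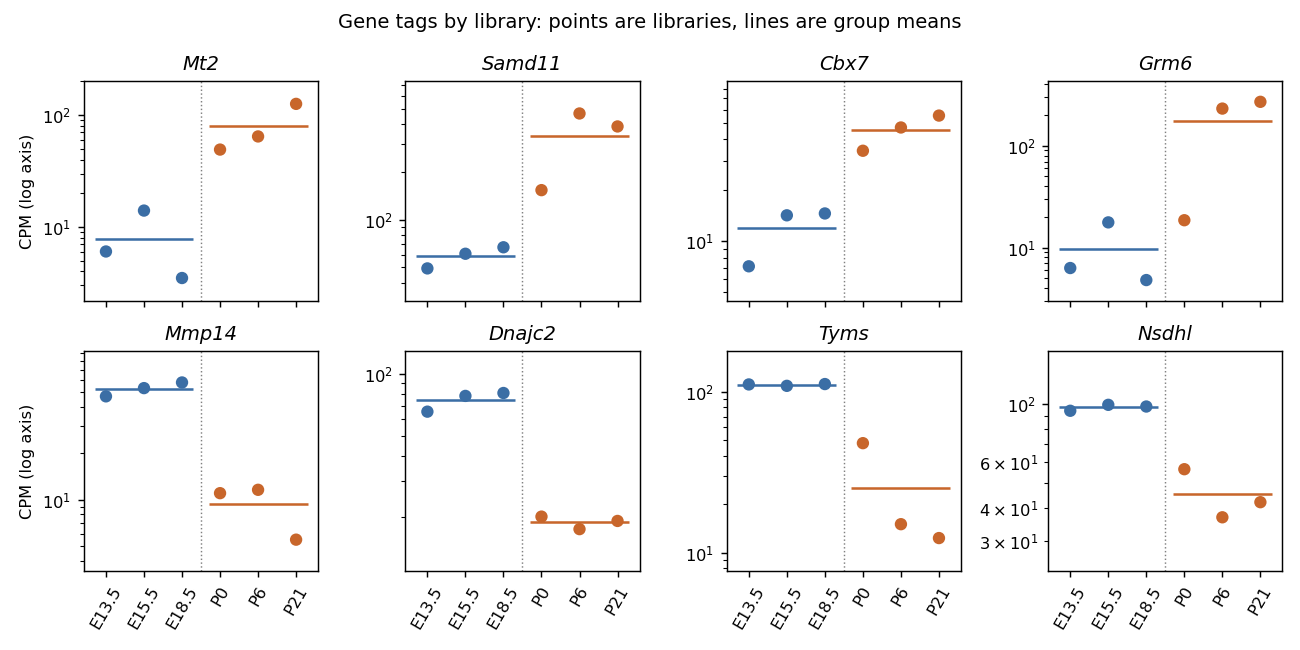
Levels of 8 genes in each library, in CPM on log axes, with group means as lines; blue marks the embryonic and orange the postnatal libraries. Dnajc2 drops from 65.5 to 80.7 CPM to 17.5 to 20.1 CPM with P0 already low, whereas Grm6 at P0 (18.6 CPM) lies beside E15.5 (17.7 CPM), both from the first columns only (the second held 0 CPM at each).

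Several genes with large negative folds, picked after their values were seen, were already declining before birth. Sfrp2, a secreted Wnt antagonist of early retinal progenitors, went through 704, 141 and 79.2 CPM at the embryonic stages to 30.5, 21.9 and 17.8 CPM. Hmga2, which bends DNA in embryonic chromatin and is a target of let-7 microRNAs, was measured at 71.5, 36.4 and 27.1 CPM and then at 14.5, 6.4 and 1.9 CPM. Dio3, the enzyme that inactivates thyroid hormone, stood at 165, 201 and 82.5 CPM and then at 49.4, 6.7 and 18.6 CPM. Embryonic globin tags belonged to this set too: Hba-x was measured at 161, 33.3 and 6.3 CPM before birth and at 2.2 to 4.4 CPM after, the latter nearly all from the first columns (4.2 to 8.2 CPM, against 0 to 0.65 CPM in the second). It marks red blood cells and not retina, and the tags of the 8 measured red cell genes summed to 205 to 1004 CPM in the embryonic and 165 to 453 CPM in the postnatal libraries.

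Gene lists for retinal cell classes and cell processes were read against these shares of 15.5% above and 16.8% below. The lists were chosen with earlier results of these data known, and their counts are descriptions; without scaling between libraries the shares over all genes were 14.7% and 17.4%. The median fitted log2 difference over all genes was -0.02, and no list median named below changed sign without a scaling factor or with upper-quartile scaling.

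Of 34 measured genes for cell division and replication of DNA, 15 lay below the embryonic range in every postnatal library (44.1%) and 0 above, and each of the 34 fitted differences was negative, with a median of -1.21. Tyms, which makes thymidylate for DNA synthesis, was measured at 111, 108 and 111 CPM before birth and at 47.8, 15.0 and 12.3 CPM after, a fitted log2 difference of -2.14 ± 0.51. It is the clearest case, since the embryonic values were level and P0 was already under them. Pcna, the replication clamp, was instead still at 137 CPM at P0 against 139 to 146 CPM before birth, and stood at 41.7 and 43.6 CPM at P6 and P21. Progenitor and neurogenic factors had 8 of 21 members below (38.1%) and 0 above, with a median of -0.82. Atoh7, the factor required for ganglion cells, was measured at 552, 413 and 194 CPM before birth and at 155, 44.9 and 68.8 CPM after. At P6 and P21 its first columns held 78.4 and 133 CPM and its second columns 7.4 and 3.8 CPM, and the log2 difference was -3.24 in the second columns against -2.11 in the sum. Hes1, a Notch target, was at 192, 130 and 161 CPM and then 109, 40.9 and 44.7 CPM. Genes of young neurons and axon growth had 10 of 31 below and 0 above (median -0.39). Among them the growth cone protein Gap43 went from 365, 309 and 207 CPM to 192, 119 and 73.2 CPM.

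Ganglion cell genes were divided, with 5 of 16 below and 2 above. The transcription factor Pou4f2 was measured at 32.6, 7.9 and 17.2 CPM before birth and at 4.1, 4.2 and 3.8 CPM after. The surface glycoprotein Thy1, in contrast, was at 9.9, 31.9 and 98 CPM before birth and at 118, 135 and 217 CPM after.

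Photoreceptor genes had 24 of 39 measured members above the embryonic range (61.5%) and 0 below, with a median log2 difference of 2.21. In the second columns alone 17 lay above and the median was 3.49. Nrl, the factor that sets rod identity, was measured at 111, 181 and 230 CPM before birth and at 316, 846 and 998 CPM after (log2 difference 2.05 ± 0.47). Its target Nr2e3 stood at 50.4, 72.1 and 127 CPM and then at 169, 553 and 427 CPM. The columns differed most at the early stages: Nrl held 197, 336 and 266 CPM in the first embryonic columns and 8.6, 23.7 and 185 CPM in the second, and Nr2e3 92.2, 141 and 148 CPM against 1.1, 2.2 and 102 CPM. Bipolar genes had 6 of 20 above and 0 below. Their median log2 difference was 2.40, and in the second columns alone it was 3.31 with 2 genes above. Without E15.5 and P0, the libraries with most lens tags, 35 photoreceptor and 16 bipolar genes lay above and 0 below, where 31.3% of all genes lay above and 34.5% below.

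Genes of synapses and transmitter release had 23 of 33 members above (69.7%) and 1 below, with a median of 1.39. Syp, a protein of synaptic vesicles, was measured at 135, 179 and 216 CPM before birth and at 318, 523 and 551 CPM after. The vesicle fusion protein Vamp2 stood at 194, 276 and 314 CPM and then at 414, 490 and 654 CPM. The exception was Syt11, at 409, 413 and 343 CPM and then 313, 330 and 337 CPM. Ion pumps and potassium channels had 13 of 23 above (56.5%) and 0 below. Atp1b2, a subunit of the sodium pump, was at 101, 176 and 227 CPM before birth and at 281, 673 and 719 CPM after.

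Amacrine and horizontal cell genes had 6 of 18 above and 1 below. Gad1, which makes the transmitter GABA, went from 3.6, 14.8 and 28.4 CPM to 45, 81.1 and 153 CPM, and the glycine transporter Slc6a9 from 21.6, 48.0 and 50.6 CPM to 76.2, 221 and 264 CPM. The early horizontal and ganglion cell factor Onecut2 was the member below, at 76.2, 56.7 and 31.2 CPM and then 25.5, 21.7 and 12.1 CPM. Müller glia genes had 6 of 20 above and 3 below. Rlbp1, which carries retinaldehyde, was measured at 46, 72.8 and 140 CPM before birth and at 165, 550 and 592 CPM after; at E15.5 its columns held 131 and 14 CPM. The intermediate filament Vim, which progenitors share with Müller glia, was lower after birth at 166 to 203 CPM against 208 to 365 CPM. Markers of astrocytes, which enter the retina along the optic nerve, moved beside this list: 4 of 7 lay above, Gfap at 15.1, 24.2 and 35.1 CPM after 0.55, 1.8 and 9.6 CPM, and their sum was 77.2 to 180 CPM before birth and 221 to 822 CPM after. Their part in the glial values was not tested.

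**Figure D3:**
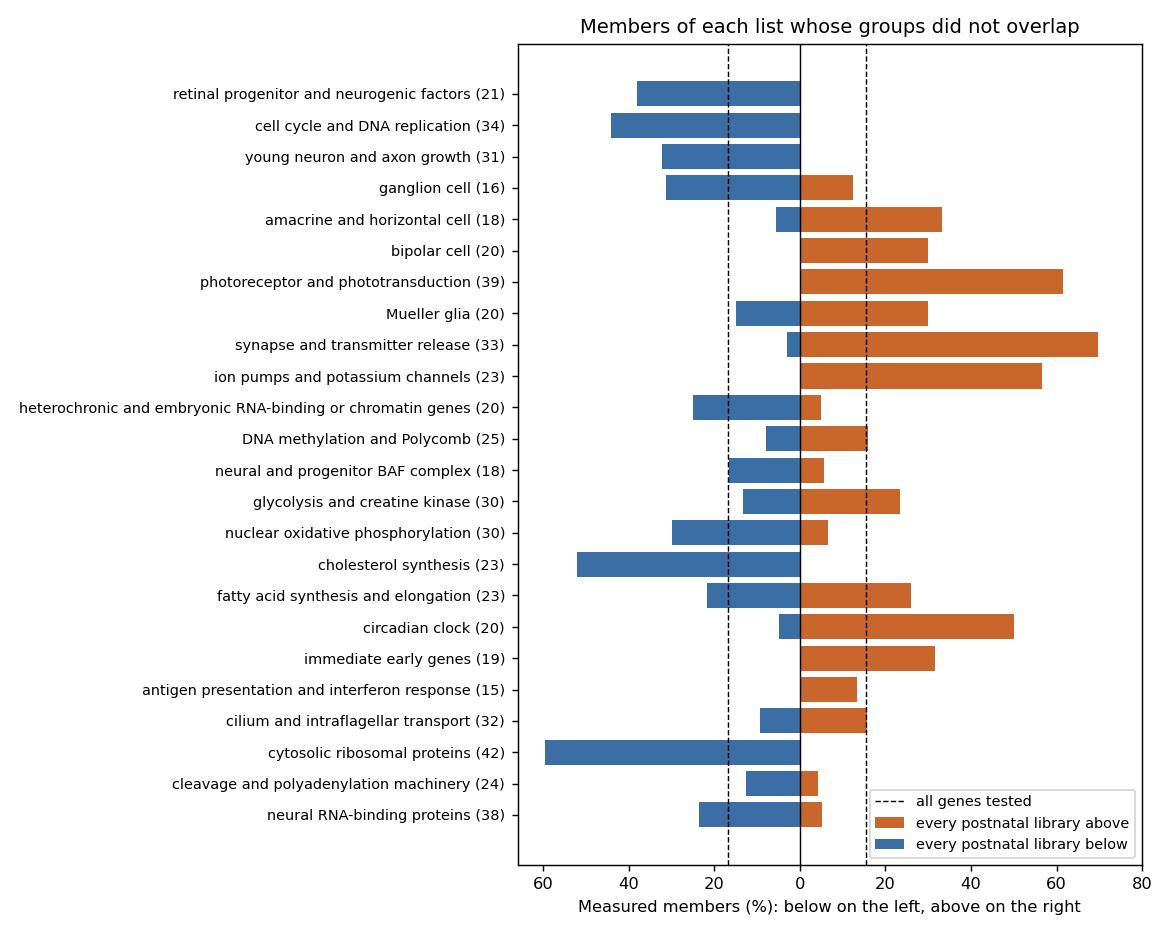
Share of the measured members of each list (number in brackets) in which every postnatal library lay above (orange, right) or below (blue, left) every embryonic library; dashed lines give the shares over all genes tested, 15.5% and 16.8%. Synapse genes (69.7% above) and ribosomal protein genes (59.5% below) are at the 2 ends.

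Metabolic lists parted in both directions. Of the 23 enzymes of cholesterol synthesis, 12 lay below the embryonic range after birth (52.2%) and 0 above, and the median log2 difference was -0.63. Nsdhl, which removes a methyl group from sterols, was measured at 94.0, 99.0 and 97.5 CPM and then at 56.3, 37.0 and 42.2 CPM (log2 difference -1.10 ± 0.19). Cyp51, the sterol demethylase, stood at 358, 349 and 322 CPM and then at 240, 133 and 145 CPM. Both enzymes were nearly level before birth and lower in every postnatal library, with P0 between the groups' means.

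Cytosolic ribosomal proteins had 25 of 42 members below (59.5%) and 0 above, with a median of -0.64. The fitted log2 difference was negative in 38 members and positive in 4, the highest at 3.57. Rps6 was measured at 87.7, 77.9 and 77.2 CPM before birth and at 36.5, 21.2 and 14 CPM after, and Rplp0 at 192, 156 and 138 CPM and then 119, 59.9 and 35.9 CPM. Ribosomal protein genes have many processed pseudogenes, so tags could be divided among copies, and single values are uncertain. Nuclear genes of oxidative phosphorylation had 9 of 30 below and 2 above, but their median difference was only -0.13. Ndufa1, a subunit of complex I, was at 66.3, 63.1 and 67.9 CPM and then at 25.2, 34.3 and 42.5 CPM, with P0 the lowest library. Glycolysis and creatine kinase genes had 7 of 30 above (23.3%) and 4 below (13.3%), against 15.5% and 16.8% of all genes. Eno2, the neuronal enolase, went from 37.0, 82.9 and 107 CPM to 150, 243 and 432 CPM, while Slc2a1, the glucose transporter GLUT1, was at 376, 327 and 326 CPM and then at 284, 223 and 220 CPM.

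Clock genes had 10 of 20 members above (50%) and 1 below, with a median of 1.01. The 10 were the period and cryptochrome repressors Per1, Per2, Per3, Cry1 and Cry2, the nuclear receptors Nr1d1 and Nr1d2, and the output factors Dbp, Tef and Hlf. Nr1d1 was measured at 30.4, 48.8 and 49.96 CPM before birth and at 109, 82.6 and 238 CPM after, and Tef at 68.2, 92.1 and 101 CPM and then 177, 172 and 244 CPM (log2 difference 1.18 ± 0.21). The activator genes Arntl (13.5 to 26.0 CPM before and 17.3 to 32.5 CPM after) and Clock (32.3 to 43.2 and 38.4 to 65.8 CPM) overlapped between groups. The hour of collection was not given in the sources used here. Immediate early genes, which answer to activity within minutes, had 6 of 19 above and 0 below although their median was -0.03. Egr1 stood at 5.8, 10.3 and 9.2 CPM and then at 17.9, 65.8 and 105 CPM.

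Of 24 measured genes for cleavage and polyadenylation factors, 3 lay below (12.5%) and 1 above (4.17%). Both shares were under those over all genes, 16.8% and 15.5%. Ssu72, a phosphatase of RNA polymerase II, was measured at 202, 189 and 186 CPM before birth and at 218, 444 and 443 CPM after, whereas Cpsf6, which favours distal sites, was at 424, 414 and 436 CPM and then 371, 376 and 317 CPM. Neural RNA-binding proteins had 9 of 38 below and 2 above. Elavl4 was at 255, 163 and 96.6 CPM and then at 80.9, 67.3 and 64.4 CPM, and the splicing factor Mbnl2 at 52.6, 72.1 and 86.0 CPM and then 93.2, 102 and 186 CPM. Heterochronic and embryonic genes had 5 of 20 below and 1 above; among those below was Igf2bp2 at 112, 62.0 and 49.1 CPM and then 43.4, 12.8 and 13.7 CPM.

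The other question was whether genes end at different sites. For each gene the 2 sites with the most tags were compared, and of their tags the percentage at the site farther along the gene is called the distal share. The planned exon-level F test of edgeR passed 1 pair of 6070 towards distal use (0.0165% called) and 0 towards proximal use, with 73 (1.2%) and 24 (0.395%) at an unadjusted p under 0.05. That pair was in Rps15a. This test took its p-value at the distal site, set against the 2 sites together, and so did not treat the 2 sites alike. On simulated pairs it had shown little power. The gene-level F test of the same fit, added after these counts had been seen, passed 13 pairs towards distal use (0.214%) and 1 towards proximal use (0.0165%), with 517 (8.52%) and 187 (3.08%) at an unadjusted p under 0.05. In Top1, Opa1 and Anp32a the distal site held most of the tags. Their unadjusted p was 0.709, 0.684 and 0.671 in the exon-level test, against 3.77e-06, 9.79e-05 and 1.23e-05 in the gene-level test. All 14 pairs had groups that did not overlap, in the sum and in either column alone. Passing a group test favours this, and the columns are parts of the same sum. Over all pairs, 17.6% lay above and 7.05% below in the sum. In the first columns it was 15.4% and 6.46%, and in the second 16.7% and 6.54%. The calls depended on the libraries used: without E13.5, E15.5, E18.5 or P6 no pair passed the gene-level test, and without P21 there were 5 distal and 0 proximal calls, all among the 14. Without P0 there were 32 and 16, with 12 of the 14 among them. They are given as pairs that passed an added test and not as calls of the planned one.

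The sequences that follow are the 30 bases that end at each of the 2 sites in 5 of these genes (GRCm38, RNA strand), with AATAAA or ATTAAA in capitals where the window holds it. In the distal window of Rps15a another AATAAA overlaps the one in capitals. Rps15a and Gmps are shown because their shares differed most, and Mrpl15 as the pair that went the other way. Sugt1 is an example with AATAAA in both windows, as in Rps15a. Parva is an example with a signal in the distal window only, as in Top1 and Anp32a.

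Rps15a proximal, chr7:118109062-118109091, minus strand: cataAATAAAaagcctttgtggactgtgct
Rps15a distal, chr7:118104376-118104405, minus strand: tgtgtgaataaAATAAAgcattttttttaa
Gmps proximal, chr3:64016722-64016751, plus strand: tgagtgggagtAATAAAtgctttgttgagg
Gmps distal, chr3:64021460-64021489, plus strand: tattgactataaaatcgccttgctgaatta
Sugt1 proximal, chr14:79628947-79628976, plus strand: gtactaAATAAAtcaatttgctatcactgt
Sugt1 distal, chr14:79630764-79630793, plus strand: tataAATAAAtcgtatttttactgttcaac
Parva proximal, chr7:112588947-112588976, plus strand: tagtccccacaataagggggagtctctacc
Parva distal, chr7:112591655-112591684, plus strand: ctctgtgcaAATAAAgcctgaatgaacgaa
Mrpl15 proximal, chr1:4776378-4776407, minus strand: gggtATTAAAgctttgggtctgttaccagc
Mrpl15 distal, chr1:4774300-4774329, minus strand: ttctaaagtaagagggaaacttttgttatg

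In Rps15a, which encodes a protein of the small ribosomal subunit, the sites lay 4686 bases apart in annotated last exons. The distal share was 15.5%, 14.3% and 16.8% before birth and 58.4%, 61.6% and 71.0% after. The 95% Wilson intervals reached at most 20.5% in the embryonic libraries and at least 50.7% in the postnatal ones. Means were 15.5% ± 1.26 and 63.7% ± 6.56 (SD, n = 3 libraries each), with an exon-level adjusted p of 0.0478 (0.0183 to 1 over the alternatives) and a gene-level adjusted p of 0.00613 (0.00174 to 0.112) in edgeR. Tags at the proximal site went from 268, 270 and 386 to 67, 58 and 49, while those at the distal site went from 49, 45 and 78 to 94, 93 and 120. The gene as a whole was measured at 88.2, 86.0 and 102 CPM and then at 54.1, 37.7 and 48.5 CPM, so its lower level came with fewer proximal tags.

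Gmps, the enzyme that makes GMP for nucleotide synthesis, had distal shares of 52.3%, 38.1% and 39.2% before birth and 89.4%, 88.1% and 89.9% after. The exon-level adjusted p was 1 (0.0183 to 1 over the alternatives) and the gene-level one 0.00646 (0.00235 to 0.112). Here the distal tags stayed between 118 and 194 in all libraries, and the proximal tags were 177, 206 and 271 before birth against 19, 16 and 14 after. Sugt1, a cochaperone of HSP90, showed the same form, with distal shares of 61.1%, 54.0% and 49.5% and then 86.3%, 83.9% and 79.7%. Its distal tags were 129 to 156 in all 6 libraries, and its proximal tags 91 to 141 before birth and 22 to 35 after.

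Pairs with a small minor site make up much of the rest. Top1, the DNA topoisomerase, had 90.2%, 90.8% and 91.0% of its pair at the usual end of the gene before birth and 97.7%, 98.1% and 97.9% after. The other site lay 39986 bases upstream, in an internal exon. Opa1, which fuses mitochondrial membranes, went from 87.3%, 88.7% and 88.0% to 95.7%, 96.0% and 95.7%. Both pairs varied by under 2 points within a group and passed the gene-level test with a difference of 7 to 8 points. That test works on ratios of tags, and the fitted log2 ratio change was 2.26 in Top1 and 1.63 in Opa1.

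Smarcc2, a core subunit of the BAF chromatin remodelling complex, had distal shares of 72.7%, 67.4% and 72.3% before birth and 89.8%, 90.1% and 88.9% after, over sites 822 bases apart. The kinase Pak1 stood at 84.4%, 82.0% and 82.8% and then at 93.1%, 94.3% and 95.2%. Bcat1, which breaks down branched-chain amino acids, kept most of its tags at the proximal site throughout, with 15.7%, 21.8% and 26.3% distal before birth and 42.5%, 44.9% and 44.4% after. Minos1, a protein of mitochondrial cristae, was likewise mostly proximal, at 10.9%, 14.8% and 15.1% and then 24.7%, 26.9% and 26.6%. The focal adhesion protein Parva and the phosphatase inhibitor Anp32a were further tandem pairs, at 83.2% to 88.7% and then 95.8% to 98.2%, and at 85.5% to 93.9% and then 98.8% to 98.9%. In Gtpbp3 and Agk the distal site lay beyond the annotated end. Gtpbp3, which modifies mitochondrial tRNA, went from 12%, 15.2% and 19.4% to 60.6%, 47.6% and 64.1%, and the lipid kinase Agk from 52.0%, 65.4% and 67.2% to 94.3%, 95% and 95.5%. Agk rests on as few as 25 tags, and the widest of its intervals spans 36.5 points.

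Mrpl15, a protein of the mitochondrial ribosome, was the single pair that passed towards the proximal site. Its distal share was 21.2%, 18.5% and 20.4% before birth and 6.7%, 8.1% and 6.5% after (gene-level adjusted p of 0.0156 in edgeR, 0.0103 to 0.227 over the alternatives). For the other pairs apart from Rps15a the gene-level adjusted p was 0.00646 to 0.0424, and over the alternatives the highest was 0.305. None of the 14 genes passed the test of gene level, but neither did any other of the 14467 genes tested. That result therefore does not show that their levels were unchanged. Within 40 bases before the site, AATAAA or ATTAAA was found at 10 of the 14 proximal sites (71.4%) and at 9 of the 12 distal sites with transcript sequence (75%). Over all pairs it was found at 69.8% of proximal and 84.1% of distal sites, so these few sites did not stand out.

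**Figure D4:**
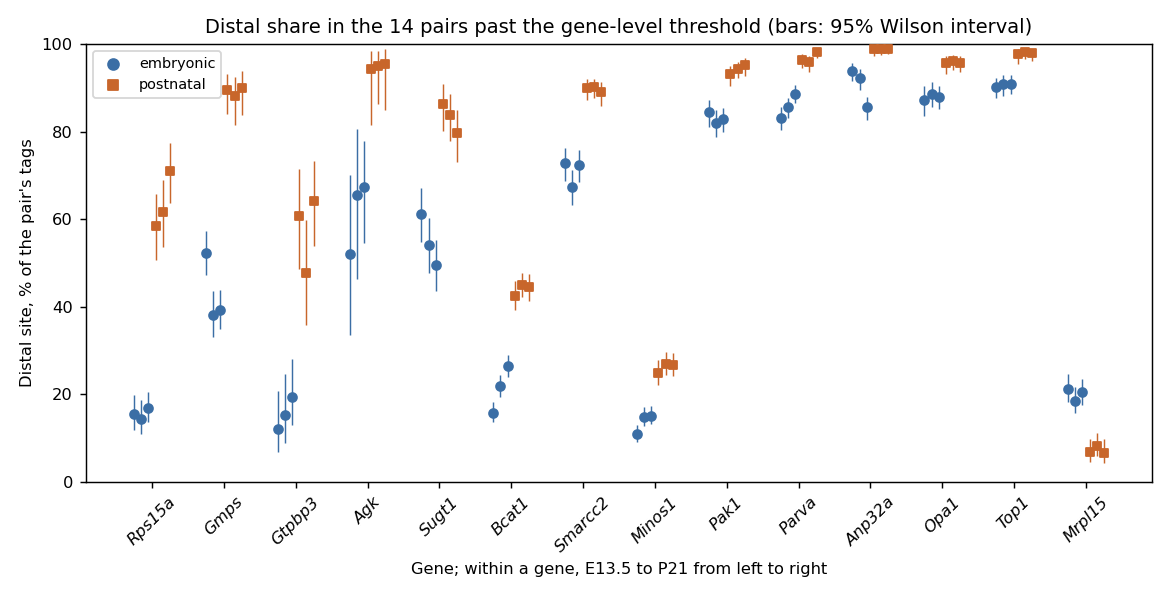
Distal share, in percent of the pair's tags, in each library for the 14 genes that passed the gene-level test; circles are embryonic and squares postnatal libraries, with 95% Wilson intervals. In Rps15a the embryonic shares lie at 14.3% to 16.8% and the postnatal ones at 58.4% to 71.0%, while Mrpl15 goes the other way.

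Over all pairs the postnatal libraries leaned to distal sites. Every postnatal share lay above every embryonic one in 1067 of 6070 pairs (17.6%) and below in 428 (7.05%). The median distal share was 58.0%, 57.7% and 59.6% before birth and 60%, 60.8% and 62.1% after. The means of 58.4% ± 1.03 and 61.0% ± 1.07 (SD, n = 3 libraries each) gave an exact two-sided permutation p of 0.1, the smallest that 3 against 3 libraries allow. In the pairs that did not overlap, the step from E18.5 to P0 was the largest of the 5 in 56.9% of those above and 55.8% of those below. That choice of pairs favours this step, since every such pair has to part across it. Over all pairs the median distal share was 59.6% at E18.5 and 60% at P0. Without P0 the counts above and below were 1687 and 709, without E15.5 they were 1381 and 658, and without P21 they were 1425 and 742.

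The lean to distal sites was strongest where the 2 sites lay far apart. Among 3832 tandem pairs, with both sites in one last exon, the share above was 13.4% at up to 100 bases, 12.3% at 101 to 300, 16.3% at 301 to 700, 20.04% at 701 to 1500 and 27.9% over 3000 bases. The share below was 5.46% at up to 100 bases, 8.54% at 101 to 300 and 3.23% over 3000. Over the 1032 tandem pairs more than 1500 bases apart the median distal share was 59.0%, 58.6% and 62.1% before birth and 63.0%, 65.1% and 66.7% after. Over the 1104 pairs of 300 bases or less it was 60.7%, 58.3% and 60.8% and then 60.7%, 61.3% and 61.0%, and the groups overlapped (exact permutation p = 0.3). None of the tandem pairs under 701 bases passed the gene-level test.

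**Figure D5:**
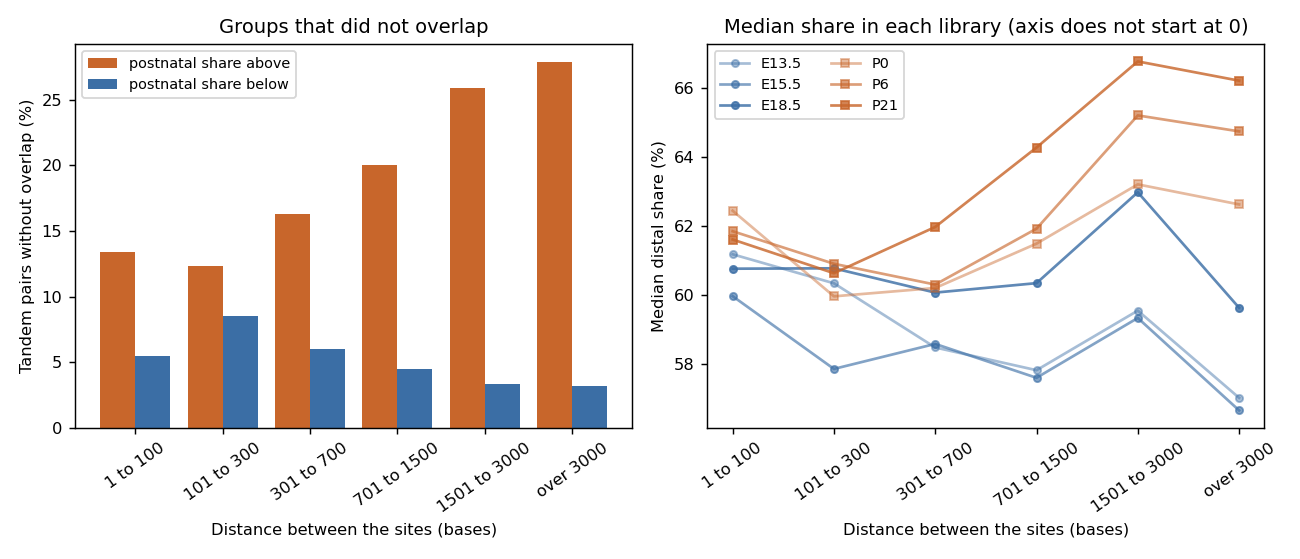
Tandem pairs by the distance between their sites. Left, percent of pairs in which every postnatal share lay above (orange) or below (blue) every embryonic one; right, median distal share in each library, on an axis that does not start at 0. The share above goes from 13.4% at up to 100 bases to 27.9% over 3000 bases.

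Pairs outside one last exon were not all alike. Of the 900 pairs from a last exon to the downstream flank, 17.2% lay above and 9% below. Of the 63 pairs from another exon to a last exon it was 25.4% and 6.35%, against 18.9% and 5.35% of tandem pairs. Where the proximal site lay in an intron and the distal one in a last exon, 48 of 438 pairs lay above and 61 below, and the median difference was -0.87 points. Trp53, the tumour suppressor, was one of these, with 95.2%, 93.4% and 86.8% at its last exon before birth and 55.3%, 67.9% and 63.3% after (gene-level adjusted p of 0.17; named after its values were seen). Over all tags, sites in introns held 1.44%, 1.55% and 1.61% before birth and 1.69%, 1.79% and 1.91% after. Last exons held 86.9%, 86.2% and 86.0% and then 85.7%, 85.2% and 83.4%. In both kinds the groups did not overlap, and each difference gave an exact permutation p of 0.1, or 0.117 after adjustment over 7 kinds of location. Tags on the strand opposite to a gene went from 0.503%, 0.597% and 0.656% to 0.707%, 0.782% and 1.12%.

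Among list members, neural RNA-binding proteins leaned to distal sites themselves, with 10 of 27 pairs above and 2 below against 17.6% and 7.05% of all pairs. None passed a test. Tardbp, which encodes TDP-43, had distal shares of 37.6%, 42.4% and 52.7% before birth and 59.8%, 57.4% and 62.8% after, and Hnrnpd 20.5%, 20.6% and 23.7% and then 30.02%, 34.7% and 46.4%. Both encode proteins that bind RNA in its 3′ untranslated region. Nova2, a neuronal splicing factor, went the other way, at 30.2%, 39.0% and 28.8% and then 28.1%, 19.9% and 8.5%. Ribosomal proteins had 3 of 14 pairs above and 8 below, with a median difference of -5.28 points. Rps15a, with its large distal rise, was not on this list and is not in these counts. The caution about processed pseudogenes holds for these pairs and for Rps15a too. Rpl5 was among those above, at 63.7%, 62.6% and 63.7% and then 76.9%, 82.8% and 83.1%, and Rpl23 among those below, at 30.03%, 29.3% and 26.8% and then 21.1%, 23.1% and 22.2%.

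Other genes with wide differences did not pass either test. Dlg4, which encodes the synaptic scaffold PSD-95, had distal shares of 28.9%, 30.4% and 21.5% before birth and 81.8%, 65.5% and 48.0% after (gene-level adjusted p = 0.313 in edgeR). P0 was the highest library and P21 the nearest to the embryonic ones, so the spread within the postnatal group was wide. Six6, an eye field transcription factor, was level within each group, at 36.2%, 39.7% and 37.3% and then 51.6%, 52.2% and 54.0%. Sympk, a scaffold of the cleavage machinery itself, went towards its proximal site, from 96.3%, 88.2% and 85.6% to 75.9%, 63.7% and 61.5% (gene-level adjusted p = 0.101).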

How the data were processed

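The authors deposited 1 table of tag counts per poly(A) site cluster over the series, with 12 columns, 2 for each of the 6 stages, and 1 enrichment score per site, per the file headers. Reads were aligned to mm10 with BWA 0.7.5a-r405, per the submitters' processing notes. How sites were clustered and scored, and what the 2 columns of a stage stand for, is not given in the sources used here. The deposited score was used only to check its lowest value, 3.00. The 2 columns were summed per stage, and never used as replicates; how far they differed was checked after the values were seen.

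The 32688 sites were placed by their 3′ edge on GENCODE M21 (GRCm38) genes of the same strand or within 1000 bases downstream. Of these, 674 lay in more than 1 coding gene. Gene totals were tested with edgeR 4.0.16 under R 4.3.3, by its quasi-likelihood F test after TMM scaling. Genes had to reach 1 CPM in 2 libraries or more, and an adjusted p of 0.05 or less was called. Site choice used the exon-level test of diffSpliceDGE on the 2 main sites of a gene (each at least 5% of its tags, mean of at least 20 tags). The p-value was that of the distal site. The scripts were tested on simulated data: the exon-level test missed the changed pairs there, so the gene-level test of the same fit was added. That was done after the exon-level result on the real data was known, and it stays an alternative. Single values used exact permutation tests (scipy 1.17.1). DESeq2 1.42.0 and limma 3.58.1 were alternatives.

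Named genes were to be the 10 with the largest change each way among those past the threshold. The rule also named the 6 genes each way with the widest gap between groups. As none passed, other genes were named by gap among genes of at least 20 CPM, by fold and by list after their values had been seen. The members and lists were chosen with earlier results of these data known. Replicate numbers pair no samples, since each stage had 1 sample. Some members of the lists are not reported here by name.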

Additional observations from a re-analysis of the deposited data

How the results depend on the processing

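Gene counts (higher and lower after birth; 0 and 0 as reported) were 1068 and 532 with DESeq2, 1421 and 1184 without E18.5 and P0, 245 and 307 without E15.5 and P0, and 1001 and 754 with stage order within the group added. Leaving out 1 library at a time gave 0 to 1640 and 0 to 1698. They stayed at 0 under upper-quartile scaling, no scaling, no filter, a stricter filter, either column alone and other flanks. The planned site test (1 distal, 0 proximal) gave 4 distal pairs with limma, 0 in the second columns, with a flank of 5000 bases, without E18.5 and P0 or without E15.5 and P0, and 13 and 1 at the gene level; without single libraries it gave 0 to 1 distal and 0 to 1 proximal. The gene-level counts were 5 and 0 in the first columns, 5 and 2 without E18.5 and P0, and 5 and 3 without E15.5 and P0. With a mean of 50 tags the gene-level calls were 18 distal and 5 proximal. Without single libraries the counts were 0 to 32 distal and 0 to 16 proximal. Genes that did not overlap numbered 4528 above and 4994 below without E15.5 and P0, and 4944 and 5152 without E18.5 and P0; without single libraries they were 2561 to 4170 and 2813 to 4446. Pairs numbered 2036 and 990, and 2181 and 974, with 1351 to 1687 and 591 to 742 without single libraries; 205 tandem pairs lay below. The shifts in median distal share and in tags by location kept their direction under every alternative run. Of the named genes and pairs, 5 results reversed: abundance of Phf10 with no flank (0.0637), abundance of Kif3a with a flank of 5000 bases (0.0639), site choice of Rpusd2 (0.674) and site choice of Rpl30 (0.0129) with that flank, and site choice of Tyms in the second columns (0.506), all in log2. The causes were not tested. No paired analysis was possible because each stage had 1 sample and replicate numbers were given in accession order.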

Other observations

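Single sites, rather than genes, were also compared between the groups. At 185 of 32688 sites the lowest postnatal library lay at least 2-fold above the highest embryonic one (offset of 0.5 CPM), and at 300 sites the highest postnatal library lay at least 2-fold below the lowest embryonic one. Of the 300 lower sites, 68.0% were in last exons, which hold 66.9% of all sites. Of the 185 higher sites only 28.6% were in last exons, while 23.2% were intergenic against 7.47% of all sites, and 14.1% were opposite to a gene against 3.47%.

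Internal sites of several nuclear proteins were among the lower ones. Top1 had 60, 52 and 61 tags at an internal exon before birth and 8, 10 and 8 after. Mcm7, a subunit of the replicative helicase, had 51, 56 and 80 tags at one internal exon site before birth and 11, 7 and 6 after, while another of its internal sites had 13, 9 and 15 and then 25, 26 and 21. In Srsf11, a splicing regulator, an internal site had 50, 43 and 67 tags and then 9 at each postnatal stage, while its main site held 670, 700 and 779 and then 625, 744 and 604. These genes were picked after their values were seen. A run of A bases after a site in the transcript marks where the oligo(dT) primer could start inside an RNA. Only 13187 of the 32688 sites had transcript sequence to search for it, and the rest were not tested. Of the searched sites, 916 (6.95%) had such a run. They held 1.36%, 1.21% and 1.21% of all tags before birth and 1.07%, 1.15% and 1.10% after. Searched sites without such a run also held less after birth, at 37.04%, 36.16% and 36.22% and then 34.03%, 33.75% and 32.43%. Internal exon sites had such runs more often: at least 104 of the 289 in coding genes. Those 104 held 0.0739%, 0.0595% and 0.0569% of all tags before birth and 0.0452%, 0.0534% and 0.0461% after. The part of such priming in the lower internal sites was not tested.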
